A study of Homo sapiens with 12 samples.

Results

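The genes described here are the D-type cyclins, their partner kinases CDK4 and CDK6, and the CDK inhibitors of the CIP/KIP and INK4 families, in K562 cells exposed to dasatinib. Of 10 listed symbols (CCND1, CCND2, CCND3, CDK4, CDK6, CDKN1A, CDKN1B, CDKN1C, CDKN2C and CDKN2D), 9 had a probe in the platform annotation, and CDKN2C was not analysed here for want of one. The 9 symbols had 13 probes, of which 11 passed the rule that in some group each of the 3 arrays has a detection p below 0.05. All 9 genes had a passing probe, out of 10208 genes tested. Each passing probe had a detection p of 0 on all 3 arrays of a group, and the lowest detection p of the probes that failed was 0.306 for CDKN1A (ILMN_1787212) and 0.24 for CDKN2D (ILMN_1740597). CCND1 passed through the DMSO arrays alone, so it could only be lower or unmeasured elsewhere. The counts below leave it out and describe the other 8 genes.

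K562 is an established line from human chronic myeloid leukaemia, driven by the fused kinase BCR-ABL1, and dasatinib blocks kinases of the ABL and SRC families. The 4 groups had 3 arrays each: vehicle (0.2% DMSO, 24 h), and dasatinib at 100 nM with harvest after 4 h, 8 h or 24 h. All were treated in medium with 0.1% serum after growth in 10% serum. All cells were of 1 line. No label tells if a group's 3 arrays stem from different cultures, so the p-values speak only to the spread of these samples. The vehicle was harvested at 24 h alone, so in the earlier comparisons drug and hours in low serum cannot be told apart. Between dasatinib times, hours of drug and hours in low serum change together and cannot be told apart either.

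D-type cyclins are made in response to growth signals and bind CDK4 or CDK6, and the complexes phosphorylate the retinoblastoma protein, which releases E2F factors and lets cells pass from G1 into S phase. INK4 inhibitors bind CDK4 and CDK6 alone and keep cyclin D away, whereas CIP/KIP inhibitors bind cyclin and CDK together and block CDK2 most strongly. BCR-ABL1 signalling is known to keep D cyclin levels high and CDKN1B levels low in leukaemia cells, through STAT5, ERK, PI3K and FOXO factors.

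Median raw signals over all probes were 134 to 160 and 17175 to 18927 of 47314 probes were detected per array. Most probes were undetected, so this median reflects background. Raw signals of brighter probes were less even. At 4 h those of CCND3 were 6779, 6617 and 4506 on arrays A, B and C, and those of CDK4 were 5071, 4360 and 2802. Pearson r over genes was 0.9892 to 0.9925 between arrays of a group and at most 0.9851 between groups. All 9 K562 markers with a probe, such as the fetal globin HBG1, the erythroid factor GATA1 and ABL1, were detected on all 12 arrays. Their summed normalized signal was 68960 to 73020 at 4 h, 78910 to 88030 at 8 h and 92280 to 94540 at 24 h of dasatinib, against 68350 to 76710 in DMSO. Of 16 markers of other cell types with a probe, 4 were detected on no array (the T cell marker CD3E, the granulocyte genes ELANE and MPO, and the epithelial cadherin CDH1), 7 on some arrays and 5 on all 12 (CD3D, LYZ, COL1A2, EPCAM and KRT19). The sum of these 16 was 8113 to 9341 at 4 h, 8740 to 9409 at 8 h and 5214 to 5640 at 24 h, against 7609 to 8179 in DMSO. CD3D, for one, had a median log2 signal of 6.64 at 24 h against 9.88 in DMSO. All cells were of 1 line, and in its bulk RNA fewer cells that express a gene and less RNA per cell cannot be told apart. The part that shifts in these markers have in the results was not tested.

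RefSeq promoter sequences (GRCh38.p14) were matched by symbol for 7 of the 10 genes, at 12 start sites in all. None was held for CCND1, CCND2 and CDKN1C. Shown here are the 250 bases upstream of the start site of CDK4, a kinase gene known as a MYC target, and of CDKN1A and CDKN1B, a pair of inhibitors of 1 family whose transcripts moved in opposite directions. Each is written 5′ to 3′ on the gene's own strand. Capitals in CDK4 mark the E-box CACGTG, and in the inhibitor genes the GC box GGGCGG.
CDK4 (chr12:57752311-57752560, minus strand): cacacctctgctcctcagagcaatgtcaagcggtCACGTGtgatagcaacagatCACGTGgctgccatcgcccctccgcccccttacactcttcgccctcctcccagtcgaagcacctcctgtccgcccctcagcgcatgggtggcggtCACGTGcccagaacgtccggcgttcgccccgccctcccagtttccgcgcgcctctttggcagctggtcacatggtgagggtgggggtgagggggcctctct
CDKN1A (chr6:36678464-36678713, plus strand): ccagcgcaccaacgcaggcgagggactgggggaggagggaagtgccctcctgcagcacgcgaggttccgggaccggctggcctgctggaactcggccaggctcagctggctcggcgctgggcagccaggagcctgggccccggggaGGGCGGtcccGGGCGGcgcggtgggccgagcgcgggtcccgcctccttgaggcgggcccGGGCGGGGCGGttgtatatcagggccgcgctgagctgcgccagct
CDKN1B (chr12:12717118-12717367, plus strand): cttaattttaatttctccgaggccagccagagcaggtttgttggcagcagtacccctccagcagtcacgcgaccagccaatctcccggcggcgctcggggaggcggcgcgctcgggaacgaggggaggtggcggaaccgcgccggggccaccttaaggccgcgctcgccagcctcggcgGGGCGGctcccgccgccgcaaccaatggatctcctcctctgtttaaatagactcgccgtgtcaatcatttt

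The CDK4 window held 3 E-boxes, starting 216, 196 and 101 bases upstream of the start site, and 6.34% of 35116 RefSeq promoter windows of the same length held at least 1. The CDKN1A window held 4 GC boxes, starting 104, 94, 45 and 40 bases upstream, with the last pair overlapping by 1 base, and the CDKN1B window held 1, at 71 bases. The CDK4 window also held 3 GC boxes on the other strand (CCGCCC), not in capitals. A GC box on either strand was present in 42.6% of all windows. CDKN1B also held 2 CCAAT boxes (CCAAT on either strand), which 32% of windows hold, and CDKN1A had no match to it. The FOXO motif GTAAACA, the STAT motif TTCNNNGAA and the TATA box TATAAA were also searched for on both strands. None was found in the windows of the 12 start sites, that of CDKN1B among them. At least 1 match was present in 2.98%, 6.57% and 10.7% of all windows in turn. Matches to these letters describe the sequence and are not evidence of binding.

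Over the 4 groups, 6 of the 8 genes other than CCND1 differed by the moderated F test of limma at an adjusted p under 0.05, against 58% of the 10208 genes tested. CDK4 (adjusted p = 0.22) and CDK6 (0.18) did not pass. The standard deviation over the 12 arrays was 1.66 on the log2 scale for CDKN1C, at percentile 99.8 of the genes tested, 1.02 for CCND1 and 0.98 for CCND2. It was 0.15 for CDK4 and 0.18 for CDK6, at percentiles 10.2 and 17.4.

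**Figure D1:**
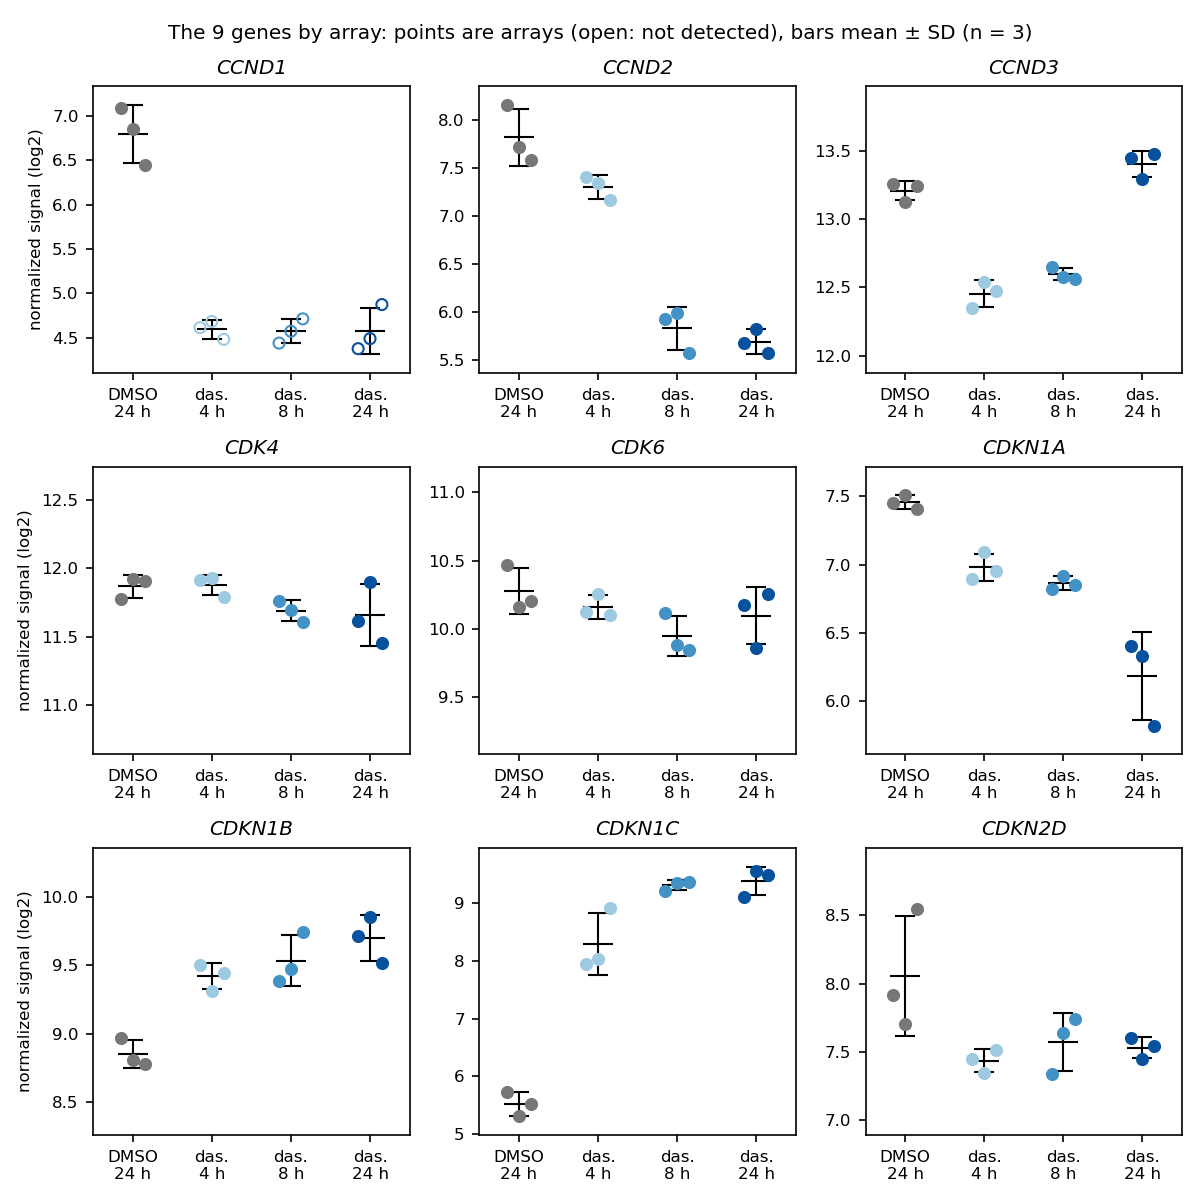
Normalized log2 signal of the 9 genes on each array, with groups along the horizontal axis (DMSO 24 h, then dasatinib, das., at 4 h, 8 h and 24 h). Points are arrays, open where the probe was not detected, and bars are the mean ± SD of 3 arrays; the vertical ranges differ between panels but none spans under 2 log2 units. CCND1 was open on every dasatinib array, CCND3 was low at 4 h and 8 h only, and CDKN1C was above DMSO at every time.

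Against DMSO, 5 of these 8 were called at 4 h (2 higher, 3 lower), where 11.9% of all genes tested were called (5.29% higher and 6.65% lower). At 8 h 5 were called, 2 higher and 3 lower, where 32% of the genes tested passed (16.6% higher and 15.4% lower). At 24 h 5 were called, 2 higher and 3 lower, where 54% of the genes tested passed (26.9% higher and 27.1% lower). The 2 higher genes were CDKN1B and CDKN1C at each time, and CDKN1A was among the lower ones at each time. CCND3 was in the lower set at 4 h and 8 h, CDKN2D at 4 h and 24 h, and CCND2 at 8 h and 24 h. The median absolute log2 fold change over the 8 genes was 0.54, 0.60 and 0.69 at 4 h, 8 h and 24 h, beside 0.16, 0.26 and 0.41 over all genes. Changes of at least 2-fold were called for 1, 2 and 3 of the 8 genes, beside 2.02%, 5.18% and 14.6% of all genes. The dasatinib and DMSO arrays did not overlap for 6, 7 and 6 of the 8, beside 27.7%, 46% and 60.9%. These 3 comparisons share the DMSO arrays. The values below are normalized log2 signals, listed by array (A, B, C) unless said otherwise, and fold changes are log2 differences from the limma fit with their SE and Benjamini-Hochberg adjusted p over 10208 genes.

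CCND1 (ILMN_1688480), the D cyclin closely tied to ERK signalling, was measured in DMSO and lost from detection under dasatinib. Its log2 signals were 7.08, 6.86 and 6.44 in DMSO, 4.61, 4.68 and 4.48 at 4 h, 4.44, 4.57 and 4.71 at 8 h, and 4.38, 4.49 and 4.87 at 24 h. The DMSO arrays lay apart from all dasatinib arrays, of which none was detected. A fold against undetected arrays is a bound, taken from the lowest normalized signal of any detected probe on each such array wherever the probe lay below it. On that basis CCND1 was at least 2.82-fold lower at 4 h, at least 2.93-fold lower at 8 h and at least 2.99-fold lower at 24 h. No p is given, since detection in DMSO alone brought the gene in. With the probe below detection throughout, levels at 4 h, 8 h and 24 h could not be ordered. The fitted difference at 24 h was -2.22 here, -0.87 without background correction and -0.41 in the authors' value table.

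CCND2 (ILMN_2067656), the D cyclin known as a STAT5 target in blood cells, was lower later. Its log2 signals were 8.15, 7.72 and 7.58 in DMSO, 7.40, 7.35 and 7.17 at 4 h, 5.92, 5.99 and 5.57 at 8 h, and 5.68, 5.82 and 5.57 at 24 h. The groups did not overlap between DMSO, 4 h and 8 h, whereas the 8 h and 24 h arrays did. At 4 h the difference from DMSO was -0.51 (SE 0.16, adjusted p = 0.055), which did not pass in this fit and passed in 8 of 21 alternatives (adjusted p 0.012 to 0.19 over all 21), among them the mean of both probes (-0.45, adjusted p = 0.012). CCND2 fell by 1.99 at 8 h (SE 0.16, 3.97-fold, adjusted p = 2.8e-06) and fell by 2.13 at 24 h (SE 0.16, 4.37-fold, adjusted p = 4e-07). The step between 4 h and 8 h was itself called, at -1.48 (SE 0.16, adjusted p = 0.00017), and that between 8 h and 24 h was -0.14 (adjusted p = 0.53; 95% interval -0.48 to 0.21). At 24 h the difference was -1.01 without background correction and -0.57 in the authors' value table, each called.

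The other CCND2 probe, ILMN_1667081, fitted over all 17625 passing probes, gave smaller changes. It differed from DMSO by -0.39 at 4 h (SE 0.19, adjusted p = 0.26), fell by 1.46 at 8 h (adjusted p = 0.00017) and fell by 1.14 at 24 h (adjusted p = 0.00033). It was dim, with raw signals of 146 ± 13.1 at 8 h against 219 ± 25.5 in DMSO (SD, n = 3 each), and was detected on 1 of the 3 arrays at 8 h. Neither probe passed at 4 h in that fit, and the arrays of ILMN_1667081 overlapped with DMSO there. The sizes of change of the probes at 24 h were not tested against each other.

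CCND3 (ILMN_1668721), a major D cyclin of blood cells, was lower than in DMSO at 4 h and 8 h, and higher at 24 h than at either of those times. Its log2 signals were 13.25, 13.13 and 13.24 in DMSO, 12.35, 12.54 and 12.47 at 4 h, 12.65, 12.58 and 12.56 at 8 h, and 13.44, 13.29 and 13.47 at 24 h. All 4 groups were free of overlap, with 4 h lowest and 24 h highest. CCND3 fell by 0.75 at 4 h (SE 0.09, 1.69-fold, adjusted p = 0.00024) and fell by 0.61 at 8 h (SE 0.09, 1.53-fold, adjusted p = 4e-04). At 24 h the difference from DMSO was 0.20 (SE 0.09, adjusted p = 0.093), which passed with the authors' value table (0.21, adjusted p = 0.016) and without background correction (0.20, adjusted p = 0.042). CCND3 was higher at 24 h than at 8 h by 0.81 (SE 0.09, adjusted p = 5.6e-05) and than at 4 h by 0.95 (adjusted p = 6.7e-06). The neighbours 8 h and 4 h differed by 0.14 (adjusted p = 0.36).

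The kinase genes showed no called change in any of the 6 comparisons of this fit. CDK4 (ILMN_1689001), whose protein pairs with all D cyclins, had log2 signals of 11.77, 11.92 and 11.91 in DMSO, 11.91, 11.93 and 11.79 at 4 h, 11.76, 11.70 and 11.61 at 8 h, and 11.62, 11.90 and 11.46 at 24 h. The 8 h arrays lay just below the lowest DMSO array, and at 24 h array B lay within the DMSO range with arrays A and C below it. The differences from DMSO were 0.01 at 4 h (95% interval -0.24 to 0.26), -0.18 at 8 h (-0.43 to 0.07) and -0.21 at 24 h (-0.46 to 0.04; adjusted p = 0.15). Without array B at 24 h, CDK4 differed from DMSO by -0.33 and from 4 h by -0.34, and both passed (adjusted p = 0.025 and 0.026). MYC, the factor that binds E-boxes of the kind printed for CDK4, fell by 1.78, by 1.37 and by 1.04 at the 3 times in turn (SE 0.13 each).

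CDK6 (ILMN_1802615), the other partner of the D cyclins, had log2 signals of 10.47, 10.16 and 10.20 in DMSO, 10.12, 10.26 and 10.10 at 4 h, 10.11, 9.88 and 9.84 at 8 h, and 10.18, 9.86 and 10.26 at 24 h. The 8 h arrays lay below the DMSO arrays and the other times overlapped with DMSO. The differences from DMSO were -0.12 at 4 h (95% interval -0.40 to 0.17), -0.33 at 8 h (-0.61 to -0.05; adjusted p = 0.073) and -0.18 at 24 h (-0.46 to 0.10). At 8 h CDK6 passed with the authors' value table (-0.28, adjusted p = 0.040), without background correction (-0.30, adjusted p = 0.026) and with median scaling (-0.63, adjusted p = 0.022). These intervals do not show that the kinase transcripts stayed level.

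**Figure D2:**
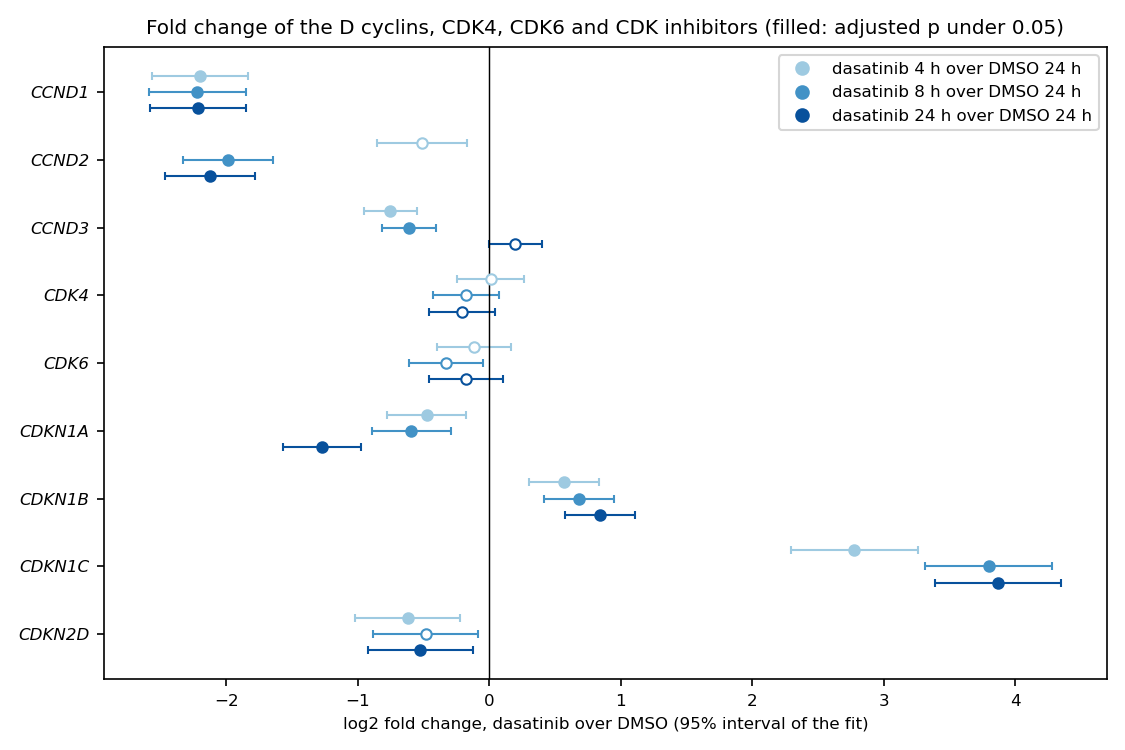
Log2 fold change of each gene for dasatinib at 4 h, 8 h and 24 h over DMSO at 24 h, with the 95% interval of the limma fit; filled points passed an adjusted p under 0.05. CDKN1C lies between 2.78 and 3.87, CCND3 is below 0 at 4 h and 8 h and above it at 24 h, and no point of CDK4 or CDK6 is filled. Points of CCND1 are fitted values against undetected arrays, shown as description.

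Among the CIP/KIP inhibitors, CDKN1C (ILMN_1718565), the imprinted member of the family, was higher at all times. Its log2 signals were 5.73, 5.32 and 5.52 in DMSO, 7.95, 8.04 and 8.91 at 4 h, 9.22, 9.36 and 9.38 at 8 h, and 9.12, 9.56 and 9.50 at 24 h. All dasatinib arrays lay above all DMSO arrays, where the probe was detected near its limit (detection p 0.00909 to 0.0312), and array C at 4 h lay between its own group and the later times. Before normalization the 4 h signals on arrays A, B and C were 444, 392 and 460, so array C was set apart mainly in the normalized values. CDKN1C rose by 2.78 at 4 h (SE 0.22, 6.85-fold, adjusted p = 7.5e-06), by 3.80 at 8 h (13.9-fold, adjusted p = 2.9e-07) and by 3.87 at 24 h (14.6-fold, adjusted p = 5.1e-08). The rise between 4 h and 8 h was 1.02 (adjusted p = 0.012), and between 8 h and 24 h the difference was 0.07 (adjusted p = 0.83; 95% interval -0.41 to 0.55). These folds of a probe close to background in DMSO depend on the background correction: without it CDKN1C rose by 1.40, 2.19 and 2.25 at the 3 times in turn, and in the authors' value table by 0.84, 1.45 and 1.502.

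CDKN1B (ILMN_2196347), the inhibitor whose gene is a FOXO target and whose protein is removed through the ubiquitin ligase subunit SKP2, was higher at all times. Its log2 signals were 8.97, 8.81 and 8.78 in DMSO, 9.50, 9.31 and 9.45 at 4 h, 9.39, 9.47 and 9.74 at 8 h, and 9.72, 9.86 and 9.52 at 24 h. All dasatinib arrays were above all DMSO arrays, and the dasatinib groups overlapped one another except at 24 h against 4 h. CDKN1B rose by 0.57 at 4 h (SE 0.12, 1.48-fold, adjusted p = 0.0099), by 0.68 at 8 h (1.61-fold, adjusted p = 0.0012) and by 0.84 at 24 h (1.80-fold, adjusted p = 9.4e-05). With median scaling, which moved the median of all genes by -0.10 at 4 h and -0.19 at 8 h, CDKN1B differed by 0.43 (adjusted p = 0.25) and 0.41 (0.14), and both calls were lost. The other CDKN1B probe, ILMN_1722811, rose by 0.86, 0.99 and 0.73 (SE 0.13 each). With that probe the highest mean was at 8 h, and with the first it was at 24 h, and no difference between times passed with either in these fits. For the first probe, 24 h against 4 h gave 0.28 (adjusted p = 0.084) and passed in 3 of 21 alternatives (adjusted p 0.040 to 0.64 over all 21).

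**Figure D3:**
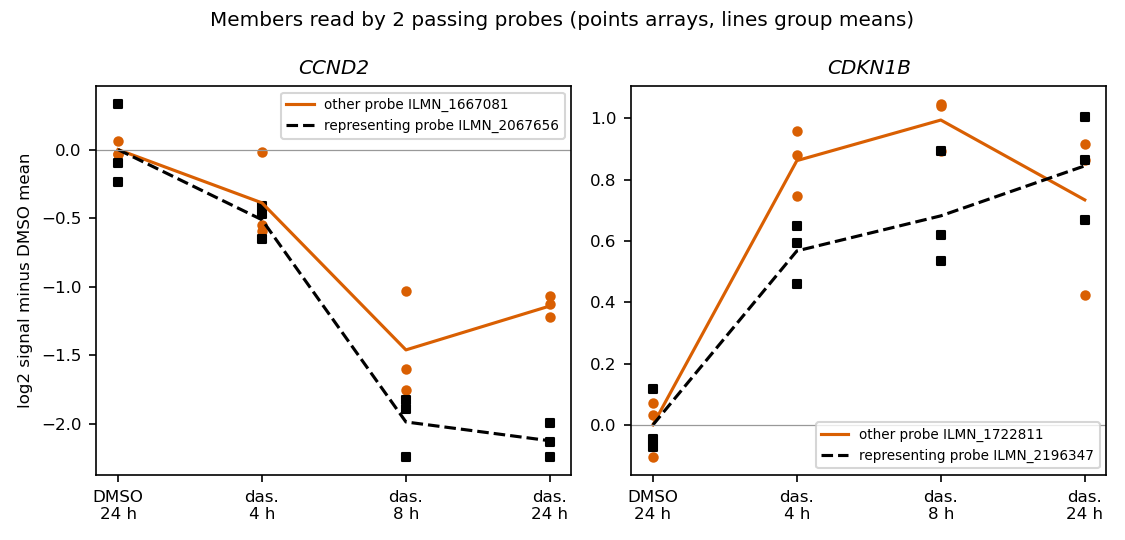
Log2 signal minus the probe's own DMSO mean, by group, for CCND2 and CDKN1B, each read by 2 passing probes; points are arrays and lines join group means. For CCND2 the representing probe was at -2.13 and the other at -1.14 at 24 h, and for CDKN1B the probes were at 0.84 and 0.73.

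CDKN1A (ILMN_1784602), a CIP/KIP inhibitor of cyclin and CDK complexes, was lower at all times. Its log2 signals were 7.45, 7.51 and 7.41 in DMSO, 6.90, 7.09 and 6.95 at 4 h, 6.82, 6.92 and 6.86 at 8 h, and 6.41, 6.33 and 5.82 at 24 h. Every dasatinib array was below every DMSO array, and the 24 h arrays were below those at 4 h and 8 h. CDKN1A fell by 0.48 at 4 h (SE 0.14, 1.39-fold, adjusted p = 0.041), fell by 0.59 at 8 h (1.51-fold, adjusted p = 0.0061) and fell by 1.27 at 24 h (2.42-fold, adjusted p = 8.7e-06). The 24 h level was also lower than that at 8 h, by 0.68 (adjusted p = 0.0024). At 24 h the difference was -0.61 without background correction and -0.34 in the authors' value table, each called. The call at 4 h was lost on leaving out any 1 of the 9 DMSO, 4 h and 8 h arrays (adjusted p 0.056 to 0.11), with median scaling (0.063) and with no detection filter (0.071), and that at 24 h against 8 h was lost with median scaling (-0.48, adjusted p = 0.090). A second annotated probe, ILMN_1787212, was detected on no array.

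CDKN2D (ILMN_1748883) was the only INK4 inhibitor of the 10 listed symbols with a measured probe. Its log2 signals were 7.92, 7.70 and 8.55 in DMSO, 7.45, 7.35 and 7.51 at 4 h, 7.34, 7.64 and 7.74 at 8 h, and 7.60, 7.45 and 7.54 at 24 h. DMSO array C stood above all other arrays, and the 8 h arrays overlapped with DMSO. CDKN2D fell by 0.62 at 4 h (SE 0.18, adjusted p = 0.046) and fell by 0.53 at 24 h (SE 0.18, adjusted p = 0.029), and at 8 h the difference was -0.48 (adjusted p = 0.063), which passed in 5 of 21 alternatives (adjusted p 0.012 to 0.23 over all 21). Without DMSO array C the differences were -0.37 at 4 h (adjusted p = 0.14) and -0.28 at 24 h (adjusted p = 0.11), and both calls were lost. The 4 h call was lost on leaving out 10 of the 12 arrays in turn (adjusted p 0.053 to 0.14), and the 24 h call also without 24 h array B (0.080) or C (0.060). With all arrays kept, both calls were lost with no detection filter (0.084 at 4 h, 0.054 at 24 h) and in a fit of only the groups compared (0.11 and 0.055), and the 4 h call in the authors' value table (0.058). Its other probe, ILMN_1740597, was detected on no array.

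Between dasatinib times, 2 of the 8 genes were called for 8 h against 4 h, where 11.3% of all genes were called. They were CDKN1C, higher, and CCND2, lower. For 24 h against 8 h, 2 were called, CCND3 higher and CDKN1A lower, where 35.7% of all genes were called. For 24 h against 4 h, 4 were called, namely CCND3 and CDKN1C, higher, and CCND2 and CDKN1A, lower, where 45.7% of all genes were called. CDK4, CDK6, CDKN1B and CDKN2D did not pass in any comparison between times. CCND1 was undetected on all dasatinib arrays, so these comparisons could not order its levels.

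Across the 12 arrays, which share the 4 group means, CDKN1C and CDKN1B had a Pearson r of 0.93, and CDKN1C had -0.93 with CCND1 and -0.86 with CCND2. CCND3 had -0.11 with CCND2 and 0.41 with CCND1. CCND1 was undetected on all dasatinib arrays, so its correlations mainly restate the split between DMSO and dasatinib. These correlations describe how the levels move together over groups and carry no test.

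Among 1358 other genes that varied (SD of at least 0.5 over the 12 arrays), the 3 most like CDKN1C were MXD3, a repressor of the MYC and MAX network (Pearson r 0.96), HSPB2, a small heat shock protein (0.96), and ZNF446, a zinc finger gene (0.96). MXD3, detected on 2 of the 3 DMSO arrays, lay above DMSO by 1.56, 2.47 and 3.05 at the 3 times in turn. No p against DMSO is given for it, since detection in the dasatinib groups alone brought it in. Unlike CDKN1C, MXD3 was also higher at 24 h than at 8 h, by 0.58 (adjusted p = 0.0024). The 3 most like CCND2 were PUM3, a nucleolar RNA-binding protein (0.99), SLC38A1, a glutamine transporter (0.98), and NSUN2, an RNA methyltransferase (0.98). PUM3 differed from DMSO by -0.27 at 4 h (adjusted p = 0.16) and fell by 1.55 at 8 h and fell by 1.63 at 24 h. The 3 most like CDKN1A were FGFRL1, a receptor of the fibroblast growth factor family without a kinase domain (0.97), SLC35C1, a fucose transporter of the Golgi (0.97), and BEND3 (0.96). FGFRL1 fell by 0.41, fell by 0.57 and fell by 1.32 at the 3 times in turn.

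Of 65 other genes of the pathway in 6 lists, 60 were measured. At 24 h 31 of the 60 passed (14 higher, 17 lower), beside 54% of all genes. At 4 h 9 passed (4 higher, 5 lower), beside 11.9% of all genes, and at 8 h 21 passed (10 higher, 11 lower), beside 32%. The median absolute log2 fold change at 24 h was 0.31 over the 60 and 0.41 over all genes. These shares lie near those of all genes.

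Of 3 other inhibitors, CDKN2B and CDKN3 were measured. The 3 probes of CDKN2A, an INK4 gene, were detected on no array. CDKN2B, its neighbour and also an INK4 gene, was detected on 1 DMSO array, on 0 at 4 h, on 3 at 8 h and on 2 at 24 h, with a difference of 0.20 at 24 h (SE 0.19, adjusted p = 0.41). K562 is known to lack this locus. CDKN3, a phosphatase that acts on CDK2, rose by 0.45 at 8 h (adjusted p = 0.0033) and by 0.62 at 24 h (SE 0.09, adjusted p = 0.00013).

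Of 9 measured genes of cyclins E and A, CDK2 and its activators, 4 fell at 24 h, beside 27.1% of all genes. The other 5 did not pass. The median over the 9 was -0.17, beside 0.01 over all genes. CCNE1, the cyclin E1 that activates CDK2, fell by 0.77 (SE 0.10, adjusted p = 3.6e-05), although its other probe gave -0.17 (adjusted p = 0.64). CDC25A, the phosphatase that activates CDK2, fell by 0.66, CCNH, the cyclin of the CDK-activating kinase, fell by 0.48, and the CDK-binding protein CKS2 fell by 0.38. CDK2 gave 0.00 (SE 0.11), CKS1B, a cofactor of SKP2, gave -0.03, and the probe of CCNE2 was detected on no array.

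Of 13 pocket protein, E2F and DP genes, 4 rose and 3 fell at 24 h, beside 26.9% and 27.1% of all genes. E2F2, an activating E2F, rose by 0.98 at 4 h (SE 0.11, adjusted p = 0.00011), by 0.86 at 8 h and by 1.53 at 24 h (adjusted p = 2.8e-07). RBL2, the pocket protein that gathers in resting cells, rose by 0.61 at 8 h and by 0.91 at 24 h (SE 0.14, adjusted p = 0.00013), and its relative RBL1 rose by 0.48 at 24 h (adjusted p = 0.034). TFDP2, a DP partner of E2F, rose by 0.90 at 24 h. E2F5, a repressive E2F, fell by 0.71, by 0.92 and by 0.76 at the 3 times in turn (SE 0.11 each), E2F3 fell by 0.58 at 24 h and E2F6 fell by 0.39. RB1 gave 0.16 at 24 h (SE 0.16, adjusted p = 0.41) and E2F1 0.01 (SE 0.32, adjusted p = 0.98).

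Of 13 genes for turnover and assembly of cyclin D and CIP/KIP proteins, 3 rose and 4 fell at 24 h, beside 26.9% and 27.1% of all genes. DTL, the substrate receptor that directs CDKN1A protein to degradation, rose by 0.91 (SE 0.13, adjusted p = 9.3e-05), FBXO4, an F-box protein linked to cyclin D1 turnover, by 0.81, and RNF123, a ligase subunit that acts on CDKN1B, by 0.78. CDC37, the chaperone partner that loads CDK4, fell by 0.55 (SE 0.09, adjusted p = 0.00026), CUL1 fell by 0.40 and FBXO31 fell by 0.38. SKP2 fell by 0.30 at 24 h (SE 0.12, adjusted p = 0.046). In the limma fit over all passing probes that SKP2 probe did not pass (adjusted p = 0.058), while its other probes fell by 1.08 and fell by 0.58. The last of these was dim, with a log2 signal of 5.25 at 24 h, and was detected there on 2 of 3 arrays.

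Of 13 measured E2F target genes of DNA synthesis, 2 rose and 3 fell at 24 h, beside 26.9% and 27.1% of all genes. The median over the 13 was 0.03, beside 0.01 over all genes. TK1, thymidine kinase, rose by 0.87 (SE 0.11, adjusted p = 2.5e-05) and the helicase subunit MCM5 by 0.37. RRM2, a subunit of ribonucleotide reductase, fell by 0.70 (SE 0.09, adjusted p = 4.1e-05), the origin licensing factor CDC6 fell by 0.65 and MCM3 fell by 0.23. In the limma fit over all passing probes that MCM3 probe did not pass (adjusted p = 0.061), nor did the other MCM3 probe (-0.22, adjusted p = 0.15). PCNA, the sliding clamp of replication, gave 0.10, while its other probe fell by 1.06 (adjusted p = 0.00086). That other PCNA probe was much dimmer, with a log2 signal of 5.83 at 24 h against 12.24 for the first.

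Of 10 measured factors known to act on these genes, 4 rose and 3 fell at 24 h, beside 26.9% and 27.1% of all genes. FOXO3, a factor known to activate CDKN1B, rose by 0.82, 0.92 and 1.80 at the 3 times in turn (SE 0.12 each), and FOXO4 rose by 1.11 at 8 h and by 1.19 at 24 h (SE 0.13 each). STAT5A fell by 0.65 at 8 h and fell by 0.48 at 24 h, whereas STAT5B rose by 0.83 at 24 h (SE 0.09). SMAD4 rose by 0.58 at 24 h and SMAD3 fell by 0.63. FOXO1 was detected on 1 of the 12 arrays and was not tested.

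**Figure D4:**
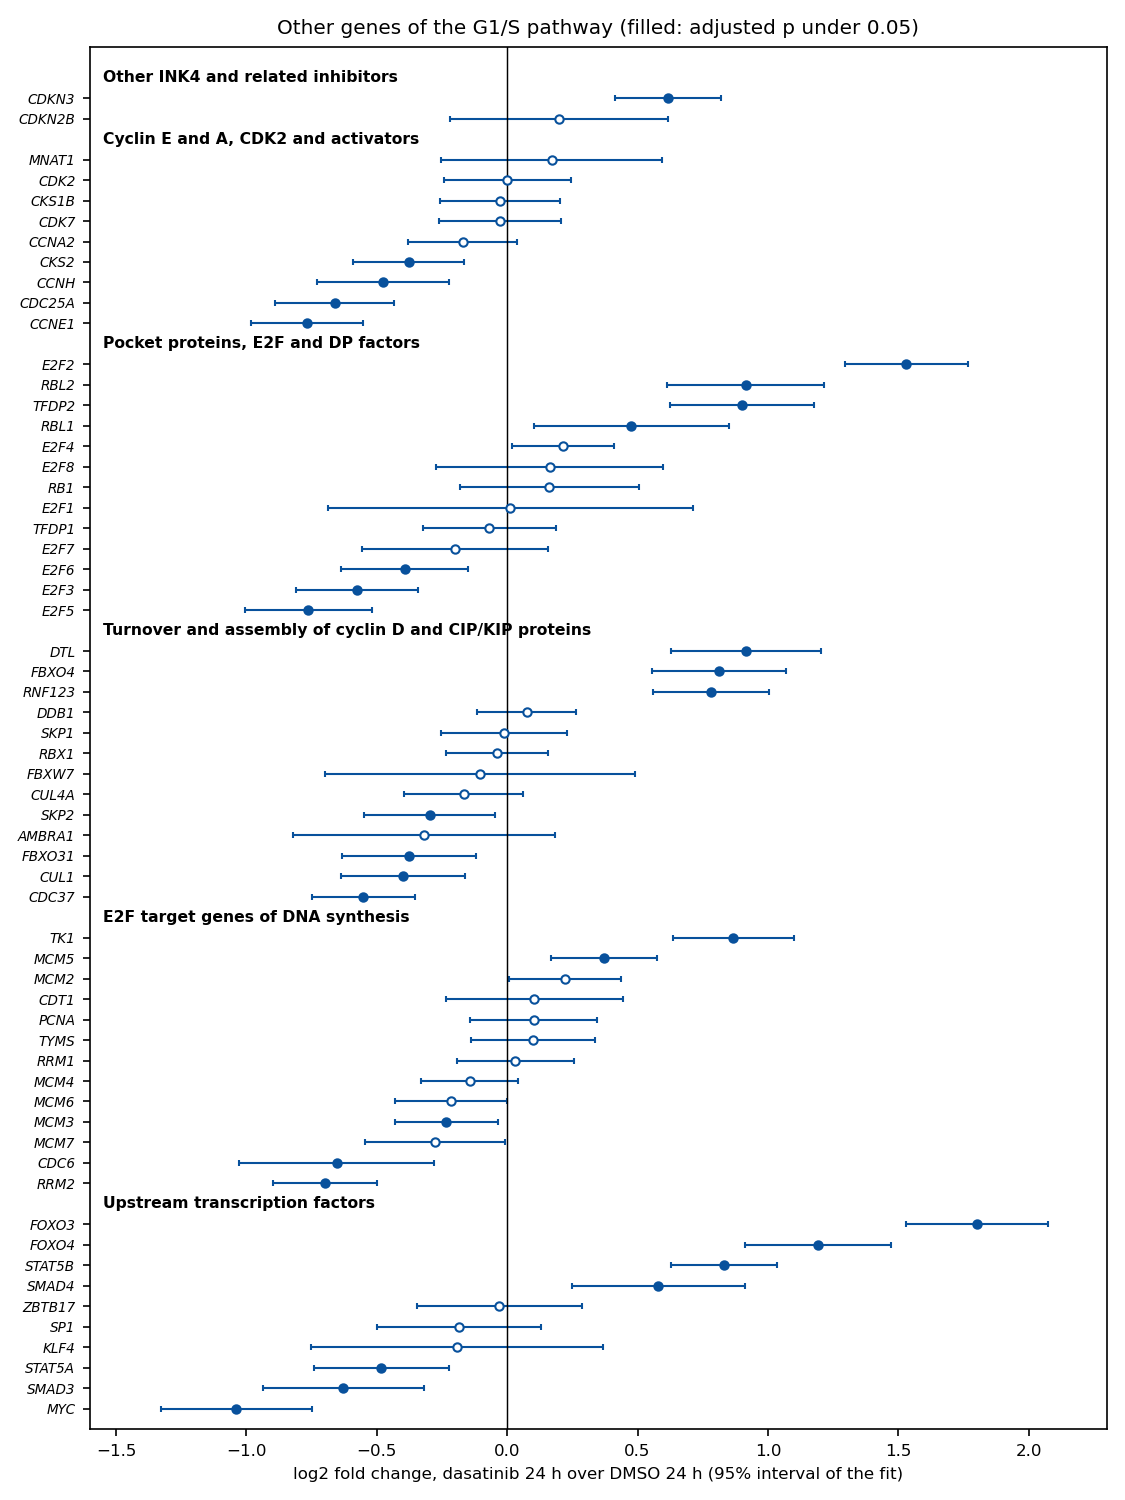
Log2 fold change at 24 h, dasatinib over DMSO, for the 60 measured genes of the 6 lists, with the 95% interval of the limma fit; filled points passed an adjusted p under 0.05. Filled points lie on both sides of 0 in most lists, from MYC at -1.04 to FOXO3 at 1.80, and the list of cyclins E and A has filled points on the lower side only.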

How the data were processed

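RNA of K562 cells was measured on 12 Illumina BeadChips, 3 for each of 4 groups. Per the file headers, the deposited scanner table gives an intensity (average signal) and a detection p-value per probe and array, and its values are not normalized. The authors' value table, also deposited, is on a log2 scale, with the same sorted values in every column (median 7.8384), so it is quantile normalized. Its background handling is not stated, and no source used here gives the scanner software. Column headers name BMS, read here as dasatinib, and a letter (A, B or C) that the labels do not hold, so columns were matched to groups only.

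The signals were corrected, quantile normalized and logged with neqc of limma 3.58.1 in R 4.3.3 (offset 16, background from the detection p-values). A probe was kept where some group had a detection p below 0.05 on each of its 3 arrays. Symbols came from the platform annotation, which can be old (30108 probes name 1 gene, 8 several and 17198 none). The passing probe with the highest mean stood for a gene with several. One model with a mean per group was fitted over all 12 arrays (lmFit and eBayes), with 6 contrasts and Benjamini-Hochberg adjustment over 10208 genes. Calls needed an adjusted p below 0.05, and only called genes are said to rise or fall. The number of arrays limits the precision. The fit was tested on simulated data.

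The genes and lists were chosen with earlier results of these data known. Besides the listed genes with every probe, the text names from each pathway list the 4 called genes with the largest change at 24 h, those called against the majority of their list, and RB1, RBL1, RBL2, E2F1, CCNE1, CCNE2, CDK2, SKP2, CKS1B, CDKN2A and CDKN2B, together with the 3 genes most like CDKN1C, CCND2 and CDKN1A. Named outside this rule after their values were seen were PCNA, CUL1, FBXO31, MCM3, SMAD4, FOXO1 and the neighbouring genes. Alternatives covered background correction, offset, scaling, detection filter, probe choice, the authors' value table, a fit of only the groups compared, a block by letter and leaving out each array.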

Additional observations from a re-analysis of the deposited data

How the results depend on the processing

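No log2 fold change of the 9 genes reversed a call in any alternative. Of 486 values from alternatives that kept all arrays, 459 kept their direction and side of the threshold, 17 newly passed and 10 no longer did. Of 648 with 1 array left out, 620 kept them, 6 newly passed and 22 no longer did. Counts of calls here include CCND1, which its choice fixed as lower than in DMSO. Calls among the 9 genes for 24 h against 8 h numbered 1 with median scaling and 2 otherwise. With a replicate block by letter, 7 of the 9 genes were called at 4 h and 7 at 8 h, in place of 6 each, by adding CCND2 and CDKN2D in turn, and 6 at 24 h. The letters did not establish a pairing, since 4 of 18 same-letter pairs of arrays had a correlation of deviations over 0.1 (range -0.085 to 0.193), and 7 of 12 arrays correlated best with their own letter. Leaving out 1 array gave 4 to 5 calls at 4 h, 6 to 7 at 8 h and 5 to 6 at 24 h. Median scaling moved the median of all genes by -0.101 at 4 h, -0.185 at 8 h and -0.07 at 24 h. Folds of dim probes (CCND1, CCND2, CDKN1A and CDKN1C) shrank without background correction, and signal over background limits them.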

Other observations

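The tested genes lying nearest to the 9 on either side, by RefSeq order, were looked at after their values were seen. Genes that were not tested were skipped, so these neighbours need not adjoin the 9. Of 36 such neighbours, 2 were called at 4 h (5.56%), 14 at 8 h (38.9%) and 18 at 24 h (50%), beside 11.9%, 32% and 54% of all genes. Of the 4 neighbours of CCND1, MYEOV and ANO1 moved in opposite directions. MYEOV fell by 1.59 at 4 h (SE 0.11, adjusted p = 3.8e-06) and was detected on no array at 8 h or 24 h, which puts it at least 5.42-fold and at least 5.53-fold lower than in DMSO. ANO1, a calcium-activated chloride channel, was detected on no DMSO or 4 h array. It was at least 1.81-fold higher than in DMSO at 8 h and at least 16-fold higher at 24 h. No p is given for ANO1, since detection at 8 h and 24 h alone brought it in.

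Near CDKN1C, SLC67A1, a transporter gene of the same imprinted cluster, was detected on all 3 arrays at each dasatinib time and on 1 of 3 in DMSO, where its mean log2 signal of 5.08 lay below the lowest signal of the detected probes (5.183 to 5.281), so the sizes that follow rest on a DMSO level near background. SLC67A1 differed from DMSO by 0.61 at 4 h (SE 0.19), by 0.99 at 8 h and by 2.69 at 24 h. No p is given for it, since detection in the dasatinib groups alone brought it in. CDKN1C itself differed by 0.07 between 8 h and 24 h. The other neighbours of CDKN1C did not rise. TSSC4 fell by 0.40 at 24 h (adjusted p = 0.0064), and NAP1L4 fell by 0.34 at 8 h (0.0095) and fell by 0.27 at 24 h (0.017). KCNQ1OT1 differed by 0.76 at 24 h and did not pass (adjusted p = 0.069).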
